A study of Mus musculus with 3 samples.

Results

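The 564 BCL11A peaks that lie on mouse chromosome 9 with their centre below 18 Mb are described here. They were chosen by position alone, whatever their score or width, from a list of 2370 peaks, of which they make up 23.8%. They are 51.0% of the 1105 peaks on chromosome 9. The list comes from MEL cells, a mouse erythroleukemia line arrested at an early red cell precursor stage, in clones that expressed BirA, a bacterial biotin ligase, together with BCL11A carrying a FLAG and biotin tag. Tagged chromatin was captured on streptavidin beads without an antibody. The series names 3 samples, 1 each of the tagged BCL11A cells, MEL cells with BirA alone and input DNA. The deposited peaks of the tagged BCL11A sample were analysed, and signal from the other 2 samples was not analysed here. All positions are in the mm9 build, counted from 1. With 1 library there is no replicate, so no value below carries an error between samples and no difference was tested.

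BCL11A binds DNA through zinc fingers and recruits corepressor complexes to it. In red cell precursors it is known for silencing the globin genes of earlier developmental stages, and in other tissues it acts in B cell and neuron development. A peak marks a stretch where captured fragments piled up beyond what the peak caller took as background. The cells were clones that expressed the tagged protein, so the capture was aimed at tagged BCL11A and not at the endogenous protein. Which of the peaks would also appear with BirA alone or in input DNA was not tested.

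Proximal chromosome 9 held these peaks in 2 stretches of different density. The stretches were split on the counts given here, with bins of 20 or more peaks called dense and the others sparse. The 9 bins of 1 Mb from 3 to 12 Mb held 80 peaks, or 8.89 per Mb, and the 6 bins from 12 to 18 Mb held 484, or 80.7 per Mb. The dense bins thus contained 85.8% of the 564. Moving away from the centromere, the 9 sparse bins held 2, 10, 5, 13, 10, 8, 5, 10 and 17 peaks. The next 6 held 57, 112, 118, 96, 63 and 38. Counts were highest in the 3 bins from 13 to 16 Mb and lowest, among the dense bins, in the one that ends at 18 Mb. That upper limit therefore cuts through a region of continuing peaks: the last 3 peaks below it scored 65.23, 56.59 and 68.46, and the first 3 beyond it scored 64.70, 88.16 and 56.05. The peaks nearest to the limit were chr9:17943571-17944643 and chr9:18013797-18014531. The rise began before 12 Mb, as the last 3 windows of 100 kb below it held 6, 3 and 5 peaks. Position chose these peaks, so the densities are a description of the list, and what sets them was not tested. Contrasts between the 2 stretches in density, spacing and runs follow in part from how they were split.

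**Figure D1:**
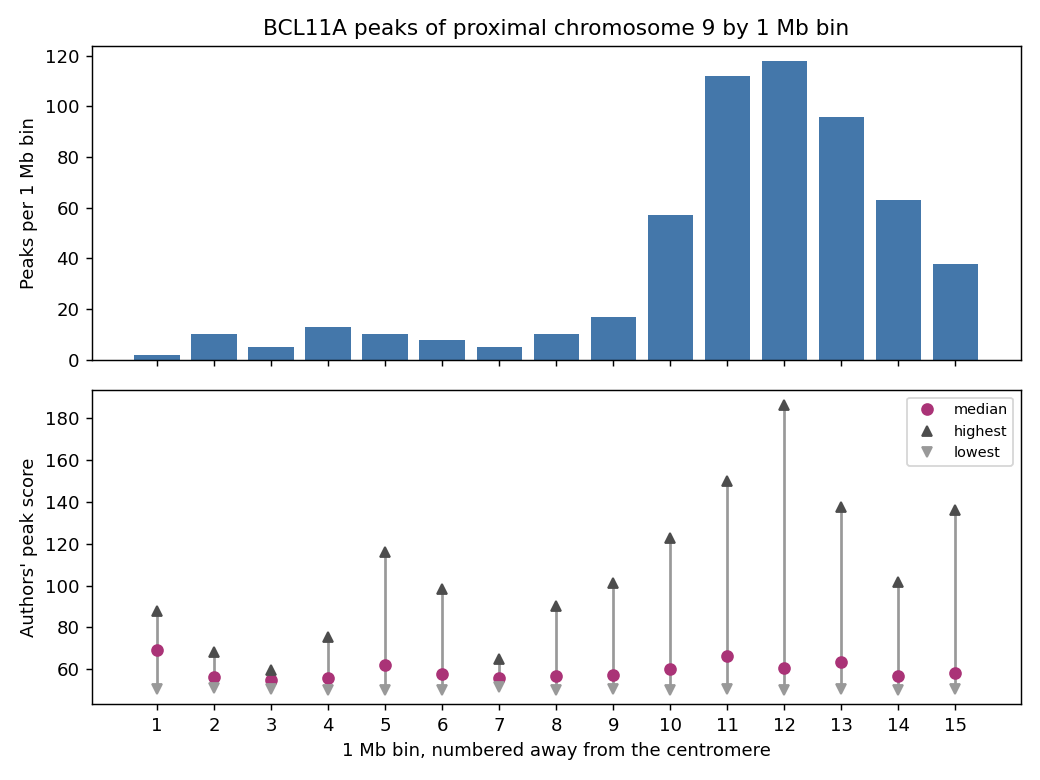
Number of peaks (upper panel, bars) and the lowest, median and highest authors' score (lower panel, symbols joined by a line) in each of the 15 bins of 1 Mb, numbered from 1 at the centromeric end. Bars range from 2 peaks in the first bin to 118 in the twelfth, with at most 17 in the first 9 bins, while the median score stays between 54.95 and 69.17 in every bin.

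At a finer scale, each of the 60 fixed windows of 100 kb in the dense stretch held at least 1 peak. Their median was 7 and their highest count 19, and 21 windows held 10 or more. In the sparse stretch 40 of 90 windows were empty, the median was 1, the highest count was 6, and 0 windows reached 10. The longest peak-free interval in the dense stretch was 103 kb, at chr9:16490261-16592865. In the sparse stretch the longest ran for 508 kb, between a peak with a score of 50.38 at chr9:3578996-3579688 and one with 57.29 at chr9:4088036-4088752. A second, of 478 kb, lay between peaks scoring 55.87 (chr9:8876416-8877088) and 64.97 (chr9:9354930-9355525). The third, of 408 kb, lay between peaks scoring 53.17 (chr9:9377660-9378302) and 55.97 (chr9:9785803-9786356). Of the 6 peaks bordering these 3 intervals, that with 64.97 scored highest, while the first peak of the chromosome, at chr9:3186081-3186997, stood alone with 87.96.

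The authors' score, for which no scale is stated, had a median of 59.97 over the 564 peaks (95% interval 58.44 to 61.28). The quartiles were 53.31 and 74.68, and scores ran from 50.01 to 186.64. Scores under 60 were held by 282 of the 564 peaks, where the whole list had 51.7% under 60, so as many peaks sat within 10 units of the floor as above. A score over 100 was reached by 46 peaks (8.16%, exact Clopper-Pearson interval 6.03 to 10.7%), where the whole list had 10.0%. The share in this region was therefore close to the background of the list. Among the 100 highest-scoring peaks of the list 14 lay here, and among the 10 highest 0 did. Both counts are below the 23.8% of the list that these peaks make up. Intervals here treat peaks as independent and cover counting error only.

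High scores went with the densest bins. Of the 46 peaks over 100, 44 lay from 12 Mb onward and 37 between 13 and 16 Mb. Of all 564 peaks, 484 and 326 lay in these 2 stretches. Per bin, the number over 100 from 12 Mb on was 5, 14, 14, 9, 1 and 1. Over the whole list 10.0% scored over 100, and on chromosome 9 from 18 to 24 Mb 12.2% did. The share was 12.5% between 13 and 14 Mb, 11.9% between 14 and 15 Mb and 9.38% between 15 and 16 Mb. Between 16 and 17 Mb it was 1.59%, even though that bin held 63 peaks, more than the 57 of the bin from 12 to 13 Mb, where 8.77% scored over 100. Count and score thus did not follow each other in every bin. Median scores moved little, from 56.61 in the bin starting at 16 Mb to 66.35 in the bin starting at 13 Mb among the 6 dense bins. The sparse stretch had a median of 56.66 (95% interval 54.95 to 59.43, 80 peaks) and the dense stretch 60.65 (58.95 to 62.69, 484 peaks).

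The 10 highest-scoring peaks all fell between 13 and 16 Mb, where 326 of the 564 peaks lay. The top 2 were chr9:14089755-14093089, with a score of 186.64 and a width of 3335 bp, and chr9:14192777-14195993, with 175.54 and 3217 bp. They ranked 15 and 21 in the whole list. Next came 3 peaks with nearly equal scores, 149.96 at chr9:14393271-14394717, 149.87 at chr9:13873819-13875860 and 149.85 at chr9:14427211-14430692. These 3 differed in width, at 1447, 2042 and 3482 bp, and the last was the widest of all 564. The other 5 scored 146.41 (chr9:13047383-13048509), 145.43 (chr9:13661788-13663570), 141.22 (chr9:14949911-14952095), 139.98 (chr9:13126777-13128974) and 137.42 (chr9:15771028-15772396).

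Outside that core, each bin had its own highest peak. From 12 to 13 Mb it was chr9:12944983-12945926 with 122.95, from 16 to 17 Mb chr9:16736290-16737741 with 101.73, and from 17 to 18 Mb chr9:17789283-17791089 with 136.00. The latter 2 were the single peaks over 100 in their bins. In the sparse stretch, 2 of 80 peaks exceeded 100, at chr9:7698318-7699751 with 115.84 and at chr9:11774369-11775302 with 101.10. The highest scores of the remaining sparse bins, in order along the chromosome and starting with the first peak named above, were 87.96, 68.09 (chr9:4504110-4504929), 59.43 (chr9:5949642-5950442), 75.59 (chr9:6897050-6897753), 98.47 (chr9:8285537-8286697), 64.97 (chr9:9354930-9355525) and 90.39 (chr9:10761091-10762392). The bin from 5 to 6 Mb was thus the one in which no peak reached 60.

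**Figure D2:**
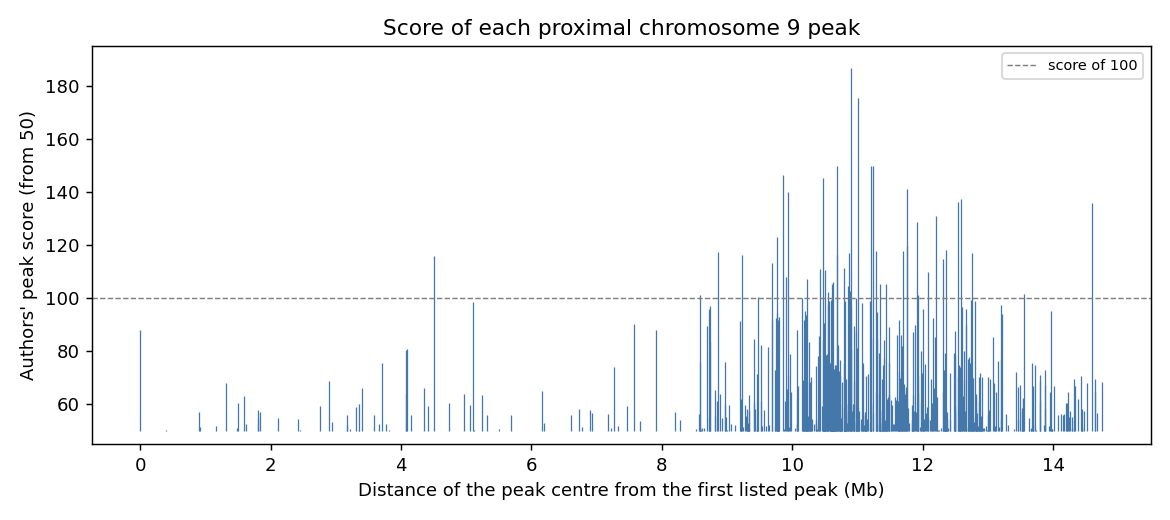
Authors' score of each of the 564 peaks (vertical lines, drawn from 50) against the distance of its centre from the first listed peak in Mb, with a dashed line at a score of 100. Of the 46 lines that cross 100, 2 belong to the sparse stretch, and the 2 tallest, 186.64 and 175.54, stand in the middle of the dense stretch.

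Peak widths had a median of 782.5 bp (95% interval 753 to 809), with the quartiles at 681 and 1017 bp, and ran from 490 to 3482 bp. Together the peaks covered 508 kb, of which 446 kb lay from 12 Mb onward. Peaks wider than 1000 bp numbered 144 (25.5%, exact interval 22.0 to 29.3%; whole list 28.3%). In the sparse stretch 8 of 80 (10.0%) were that wide, and in the dense stretch 136 of 484 (28.1%). The 5 widest comprised the 3 peaks over 3 kb named above (3482, 3335 and 3217 bp), chr9:14046625-14048947 (2323 bp, score 104.66) and chr9:15066472-15068778 (2307 bp, score 89.94). The 3 narrowest were chr9:13954195-13954684 (490 bp, score 51.51), chr9:14866233-14866738 (506 bp, 53.04) and chr9:12395199-12395709 (511 bp, 61.90). All 8 of these extremes lay in the dense stretch, which held 85.8% of the peaks.

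Wider peaks had higher scores. Across the 564 peaks Spearman's rho of score and width was 0.68, a description over peaks that share 1 library and 1 caller. The whole list had a rho of 0.63, chromosome 9 from 18 Mb 0.68, chromosome 3 0.59 and chromosome 8 0.74. Among the 162 peaks over 600 and up to 700 bp the median score was 52.51 and 0 exceeded 100. The median was 57.84 for the 96 peaks up to 800 bp, 65.51 for the 124 up to 1000 bp and 79.02 for the 111 up to 1500 bp. For the 33 widest it was 104.66, and 19 of them (57.6%) scored over 100. The 38 peaks of at most 600 bp broke this order, with a median of 56.53. One of them, chr9:13735678-13736190, reached 102.24 with 513 bp. It was the 1 peak under 700 bp among the 46 over 100, whose median width was 1453.5 bp. The opposite case was chr9:15138481-15139484, which scored 51.38 with a width of 1004 bp. Both were picked out after their values were seen.

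The narrower peaks followed a finer pattern, seen on plotting score against width. Some peaks at different places with the same width had the very same score to 2 decimals. Of the 564 peaks, 461 shared their width with at least 1 other peak of the list, as did 1910 of the 2370 peaks of the whole list. Both width and score were matched by at least 1 other peak for 173 of the 564 (30.7%), and for 30.0% of the whole list. A width of 693 bp with a score of 50.38 recurred 13 times in the list, on 5 chromosomes, and 6 of these peaks were proximal chromosome 9 peaks, among them chr9:3578996-3579688 in the sparse stretch and chr9:15413386-15414078 in the dense stretch. Peaks also lined up along curves on which the score declines as the width grows. Only falling curves were searched for, so their direction was set in advance. The most populated curve carried 115 of the 564 peaks within 0.05 score units, from 61.90 at 511 bp down to 50.12 at 698 bp, just above the floor. The next 2 carried 45 and 20 peaks. The 3 curves together held 180 peaks (31.9%, exact interval 28.1 to 35.9%), where the whole list had 31.1%. The share was 22.9% (19.4 to 26.7%) on chromosome 9 from 18 Mb, 27.5% on chromosome 3 and 18.8% on chromosome 8, differences that were not tested. They held 47 of 101 peaks (46.5%) from 16 to 18 Mb, 32 of 80 below 12 Mb and 81 of 326 (24.8%) from 13 to 16 Mb. Without the 180, the other 384 peaks had a rho of score and width of 0.67. What sets the curves was not tested, and the list gives no read counts to set beside them.

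**Figure D3:**
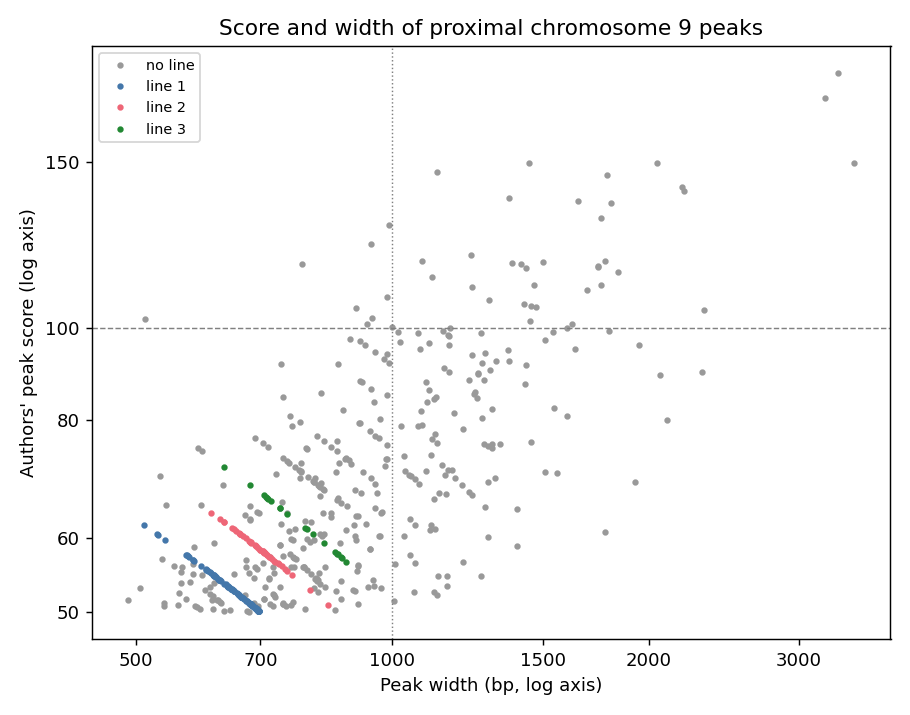
Authors' score against peak width in bp, both on log axes, for the 564 peaks (points), with lines at a score of 100 and a width of 1000 bp. Coloured points lie on the 3 most populated curves (115, 45 and 20 peaks), along which the score declines with width, while the grey points climb to the right, and 37 of the 46 peaks over 100 are wider than 1000 bp.

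Peaks of proximal chromosome 9 lay close together, as a high density entails. The median distance from a peak's centre to the nearest other centre was 5.10 kb. It was 34.9 kb in the sparse stretch, 4.32 kb in the dense stretch and 3.03 kb in the bin from 13 to 14 Mb. Another peak lay within 10 kb of 426 peaks (75.5%, exact interval 71.8 to 79.0%), where the whole list had 62.9% and the chromosome 9 peaks from 18 Mb onward had 80.8% (77.2 to 84.0%). By stretch, this held for 17 of 80 peaks (21.3%) below 12 Mb and 409 of 484 (84.5%) above it. The median score was 60.27 for the 119 peaks whose nearest centre was at most 2 kb away, 58.89 for the 159 at 2 to 5 kb and 64.20 for the 148 at 5 to 10 kb. It was 55.96 for the 30 peaks that stood over 50 kb from any other, of which 1 exceeded 100. Scores of adjacent peaks were hardly related in rank (Spearman's rho 0.05 over 563 adjacent pairs, a description).

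**Figure D4:**
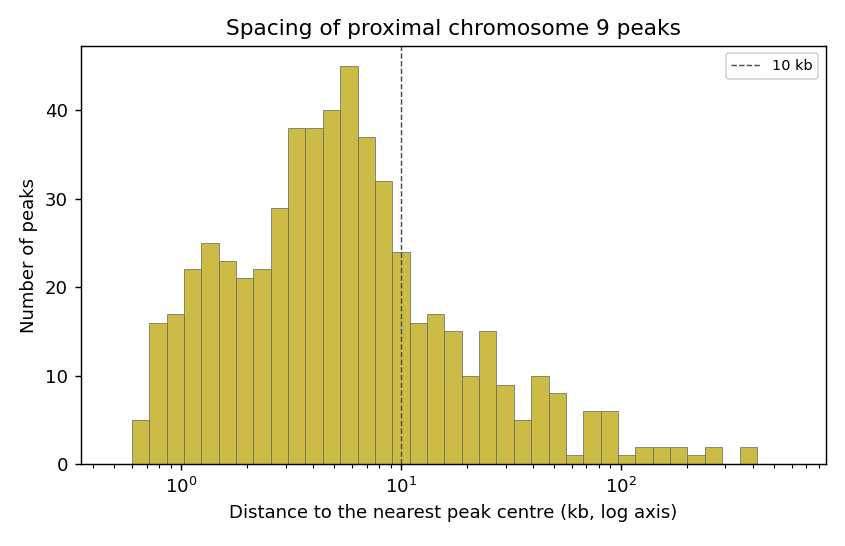
Number of peaks (bars) by distance to the nearest peak centre in kb, on a log axis, with a dashed line at 10 kb. Most bars, with 426 of the 564 peaks, lie left of 10 kb, and the tail beyond 50 kb holds 30 peaks.

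Some neighbours nearly touched. In 67 adjacent pairs, made up of 119 peaks (21.1%), the facing edges were at most 1 kb apart, with a median gap of 332 bp, and 17 pairs were under 100 bp apart. All but 2 of these pairs lay from 12 Mb onward. The share of the whole list in such pairs was not computed, so the 21.1% has no reference. The closest 3 pairs had gaps of 2, 3 and 4 bp. They were chr9:15518705-15519686 and chr9:15519689-15520457 (scores 72.77 and 61.24), chr9:13808904-13809715 and chr9:13809719-13811144 (69.49 and 106.13), and the peak with the highest score of all, 186.64, followed by chr9:14093094-14094113 with 96.70. The higher partner exceeded 100 in 11 pairs, and in 0 pairs did both. Whether such a pair is 1 occupied stretch divided by the caller or 2 stretches was not tested.

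Peaks with edges at most 10 kb apart formed 29 runs of 5 or more, which held 227 peaks (40.2%). Of the remaining peaks, 130 stood alone and the others formed 78 groups of 2 to 4. All 29 runs started at 12 Mb or beyond, and 25 started between 13 and 16 Mb. The share of the whole list in such runs was not computed, so whether runs are more common here than elsewhere was not tested. The median distance to the nearest centre was 3.82 kb from 18 to 24 Mb, against 4.32 kb from 12 to 18 Mb. The longest run had 29 peaks in 130 kb, at chr9:13766975-13897115, and 24.5% of that span lay inside peaks. Scores in this run went from 53.21 to 149.87 with a median of 71.63, and 4 peaks exceeded 100. Those 4 scored 105.28, 106.13, 149.87 and 116.41. The second run had 13 peaks in 44.5 kb (chr9:13976890-14021392, median score 58.75, highest 111.19) and the third 11 in 50.9 kb (chr9:15518705-15569588, median 57.25, highest 118.04). Long runs were therefore not uniformly high in score: a run of 10 peaks at chr9:13910283-13954684 had a highest score of 76.59, and one of 9 at chr9:14063369-14111981, which contains the top peak, had a median of 80.77.

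Against the rest of chromosome 9, peaks below 18 Mb were somewhat narrower and lower in score. Among the 541 peaks from 18 Mb onward, the score had a median of 63.20 (95% interval 61.34 to 64.95), against 59.97 below 18 Mb. Their widths had a median of 864 bp (826 to 917), against 782.5 bp. Of the 541, 64 peaks (11.8%) exceeded 100 and 205 (37.9%) were wider than 1000 bp. The 2 stretches on either side of 18 Mb were alike in number, with 484 peaks from 12 to 18 Mb and 510 from 18 to 24 Mb. Their median scores were 60.65 and 63.36, and their median widths 793.5 and 866 bp. The 320 peaks of chromosome 3 had a median score of 58.61 and a median width of 776.5 bp, so their medians lay within the intervals of the proximal chromosome 9 peaks. On chromosome 8 the 208 peaks were higher (median 69.87, interval 65.64 to 75.49) and wider (median 1011.5 bp), and 52 of them exceeded 100. None of these differences was tested, since peaks of 1 library are not replicates.

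**Figure D5:**
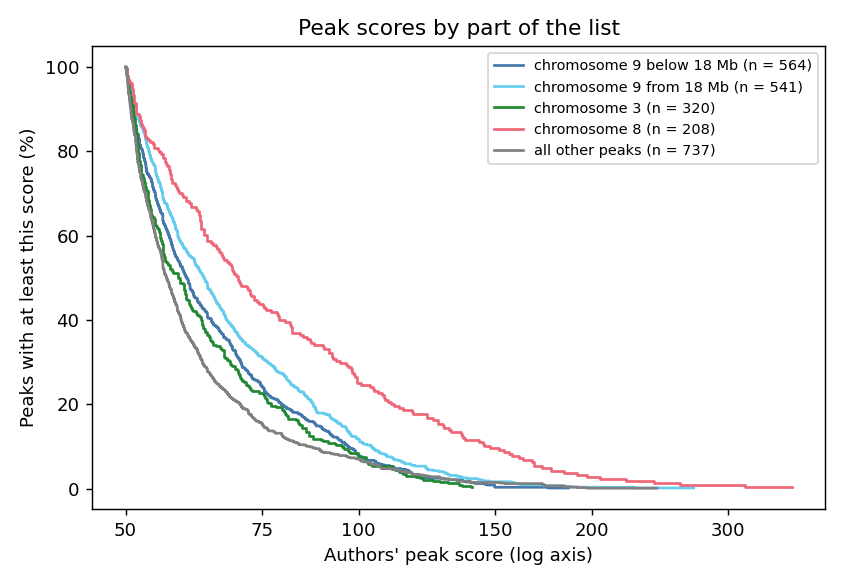
Percentage of peaks that reach at least a given authors' score (log axis) for chromosome 9 below 18 Mb (564 peaks), chromosome 9 from 18 Mb (541), chromosome 3 (320), chromosome 8 (208) and the other 737 peaks. The line for proximal chromosome 9 (median 59.97) runs between those of chromosome 3 (58.61) and of chromosome 9 from 18 Mb (63.20), and that of chromosome 8 (69.87) lies to the right of all.

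Which genes the peaks lie at was not analysed here, because the gene table at hand is of the GRCm38.p6 assembly and not of mm9. Used for gene order alone, that table was read for its first 34 protein-coding genes of chromosome 9. Where these lie relative to the sparse and dense stretches was not determined. The table begins at the centromeric end with Alkbh8, a tRNA-modifying enzyme, followed by Cwf19l2 and Gucy1a2, a subunit of soluble guanylate cyclase. Further along come the inflammatory caspases Casp1, Casp4 and Casp12, and then a row of matrix metalloproteinase genes from Mmp13 to Mmp7, whose products cut extracellular matrix proteins. After these follow Birc2 and Birc3, inhibitors of apoptosis, Yap1, the transcriptional coactivator of the Hippo pathway, and Pgr, the progesterone receptor. No peak is assigned to any of them. No sequence of a peak is printed, for the same reason.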

How the data were processed

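Occupancy was measured by streptavidin capture and single-molecule sequencing of poly(A)-tailed DNA, per the labels' protocols. The authors deposited peak intervals with 1 score each. The peak caller was CisGenome per the file header. Coordinates are in mm9 per the submitters' processing notes. The sources used here do not state the aligner, the caller's settings, its control or the number of reads. The header's track name ends in "onES_pcut5 only". Its parts are not explained there, and they may refer to a control, a cutoff and a subset of a longer list. No interval that needs read depth was computed. The score has a floor of 50.

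Peaks were placed by their centre. Medians have 95% binomial order-statistic intervals and shares exact Clopper-Pearson intervals. Runs needed at least 5 peaks with edges at most 10 kb apart. Peaks named were the 10 highest scores, the 5 widest, the 3 narrowest, the highest in each 1 Mb bin, the first on the chromosome, the 3 longest runs, those beside the 3 longest gaps and 3 on either side of 18 Mb. Other peaks named were chosen after their values were seen: the closest pairs, 2 peaks of unusual width for their score and 2 further runs. Curves of score against the logarithm of width were found by a grid search, also after seeing the data. Each search took the line holding most peaks of the list within 0.05, among lines that fall with width only. It was run 3 times, each time without the peaks already placed. The members and the summaries were chosen with earlier results of these data known. Python 3.11.15, numpy 2.4.6, pandas 2.3.3, scipy 1.17.1 and matplotlib 3.10.9 were used, and the counting of members, neighbours, runs and merged peaks was tested on 20 simulated lists and the search for curves on another. Gene, motif and base composition analyses need mm9 sequence and were not run.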

Additional observations from a re-analysis of the deposited data

How the results depend on the processing

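Of 29 alternatives over 8 values, 17 left the value within its interval, within 1.5 times for a count or within 0.05 for rho, and 12 moved it. With scores of at least 60 alone, 282 peaks remained, the medians were 74.69 for the score and 979 bp for the width, rho was 0.61, 62.8% of peaks had a neighbour within 10 kb and 4 runs were left in place of 29; fewer peaks and a higher floor are part of that setting. The share with a neighbour was 70.2% with peaks merged within 1 kb, 84.5% without the bins of fewer than 20 peaks, 49.3% at a distance of 5 kb and 86.0% at 20 kb. A gap of 5 kb gave 11 runs. A score over 80 was held by 19.7%. Shares of the whole list at these alternative settings were not computed. Leaving out the longest run, chosen after seeing the data, gave a median score of 59.59, a median width of 766 bp and 7.85% over 100. No paired analysis was possible because the values come from a single library. The list gives no reads, so what depth limits cannot be stated.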
